A study of Mus musculus with 9 samples.

Results

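Matrix metalloproteinases (MMPs) and their tissue inhibitors (TIMPs) were followed in mouse back skin as 10 genes chosen by symbol, out of 23282 entries in each count table. They comprise the collagenase genes Mmp8 and Mmp13, the gelatinase genes Mmp2 and Mmp9, the stromelysin genes Mmp3 and Mmp10, the macrophage elastase gene Mmp12, the membrane-anchored protease gene Mmp14, and the inhibitor genes Timp1 and Timp3. All 10 had an entry in every table and all 10 were among the 13740 genes kept by the low-count filter. Skin came from wild-type C57BL/6 mice, with 3 libraries in each of 3 groups. NGO-treated skin was tape-stripped, which peels away the outer epidermis, and received 50 µg of nano-sized graphene oxide in 100 µL of cream per mouse. Stripped control skin received the cream without graphene oxide. Unstripped skin was also labelled as a control cream sample, whereas the protocol describes cream for tape-stripped areas, so whether cream touched it is unknown. Skin was taken 24 h after treatment. Age was not used here. The labels number the replicates without tying them to separate mice, and every p-value below therefore reflects library-to-library spread, which may be technical.

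MMPs are secreted or membrane-bound zinc proteases that cut collagens, laminins, elastin and other matrix proteins, and most are made as inactive proenzymes. TIMPs bind the active site and block it. In injured skin these enzymes are known from keratinocytes at the wound edge, fibroblasts, macrophages and neutrophils, and their transcription is classically switched on by the AP-1 (Fos and Jun) factors.

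Of the 10 member genes, 5 lay close together in the genome. On mm10 (GENCODE M21), Mmp13, Mmp12, Mmp3, Mmp10 and Mmp8 lay in that order and on the plus strand of chromosome 9, within 295972 bases from 7272514 to 7568485. This region holds 10 Mmp genes up to Mmp7, the other 5 being Mmp1b, Mmp1a, Mmp27, Mmp20 and Mmp7. The other members were dispersed, with Mmp9 on chromosome 2 (164940780 to 164955850), Mmp2 on chromosome 8 (92827291 to 92853420), Timp3 on chromosome 10 (86300372 to 86349506), Mmp14 on chromosome 14 (54431612 to 54445364) and Timp1 on chromosome X (20870166 to 20874735). Timp1 lies inside Syn1 and Timp3 inside Syn3, both on the opposite strand, and the ends of Mmp12 and Mmp1b overlap on opposite strands. Whether counting used the strand is unknown, so reads of these pairs may be mixed. Syn1 had 0 to 23 counts and Mmp1b 0 to 30 counts per library, while Syn3 had 12 to 194.

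Upstream sequence is shown for the clustered members and Timp1, because these include every member that passed a test below. RefSeq (GRCm38.p6) gave a start for 8 of the 10 members, with 2 starts for Mmp12 and therefore 9 entries. The 250 bases before each start were searched for the AP-1 letters TGANTCA, which read the same on both strands, and for the TATA box letters TATAAA on both strands. The motifs did not overlap. An AP-1 match stood before 4 of 8 members (Mmp13, Mmp12 at its second start only, Mmp3 and Mmp10). By entry this was 4 of 9, and 6.75% of all 32851 promoter entries held one. A TATA box match stood before Mmp13, Mmp3 and Mmp10 (3 of the 9 entries), and 12.4% of all entries held one. It began 29 bases before the annotated start in Mmp10, 16 in Mmp13 and 7 in Mmp3. These are descriptions of letters, not binding sites. The 150 bases before the start are given 5′ to 3′ on the plus strand, with the AP-1 match in capitals, at chr9:7502192-7502341 (Mmp10), chr9:7445672-7445821 (Mmp3), chr9:7272364-7272513 (Mmp13), chr9:7347224-7347373 (the second start of Mmp12), chr9:7558279-7558428 (Mmp8, with no match) and chrX:20870016-20870165 (Timp1, with no match).
Mmp10: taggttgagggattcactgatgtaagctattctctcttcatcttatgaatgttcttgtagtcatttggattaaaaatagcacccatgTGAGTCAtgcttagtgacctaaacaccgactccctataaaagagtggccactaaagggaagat
Mmp3: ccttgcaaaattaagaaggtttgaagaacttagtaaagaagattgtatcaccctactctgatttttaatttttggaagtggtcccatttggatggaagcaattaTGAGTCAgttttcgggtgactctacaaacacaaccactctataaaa
Mmp13: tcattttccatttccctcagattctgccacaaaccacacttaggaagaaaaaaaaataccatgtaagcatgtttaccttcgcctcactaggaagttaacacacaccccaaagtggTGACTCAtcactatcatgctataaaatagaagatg
Mmp12: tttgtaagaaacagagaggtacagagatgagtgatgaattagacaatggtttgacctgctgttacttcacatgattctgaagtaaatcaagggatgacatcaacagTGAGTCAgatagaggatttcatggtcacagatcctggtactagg
Mmp8: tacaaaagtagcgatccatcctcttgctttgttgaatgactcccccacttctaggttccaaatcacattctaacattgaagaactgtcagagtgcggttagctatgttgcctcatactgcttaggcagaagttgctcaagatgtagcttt
Timp1: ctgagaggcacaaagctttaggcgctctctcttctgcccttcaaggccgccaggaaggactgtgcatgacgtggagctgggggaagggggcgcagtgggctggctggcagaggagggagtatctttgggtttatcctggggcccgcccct

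**Figure D1:**
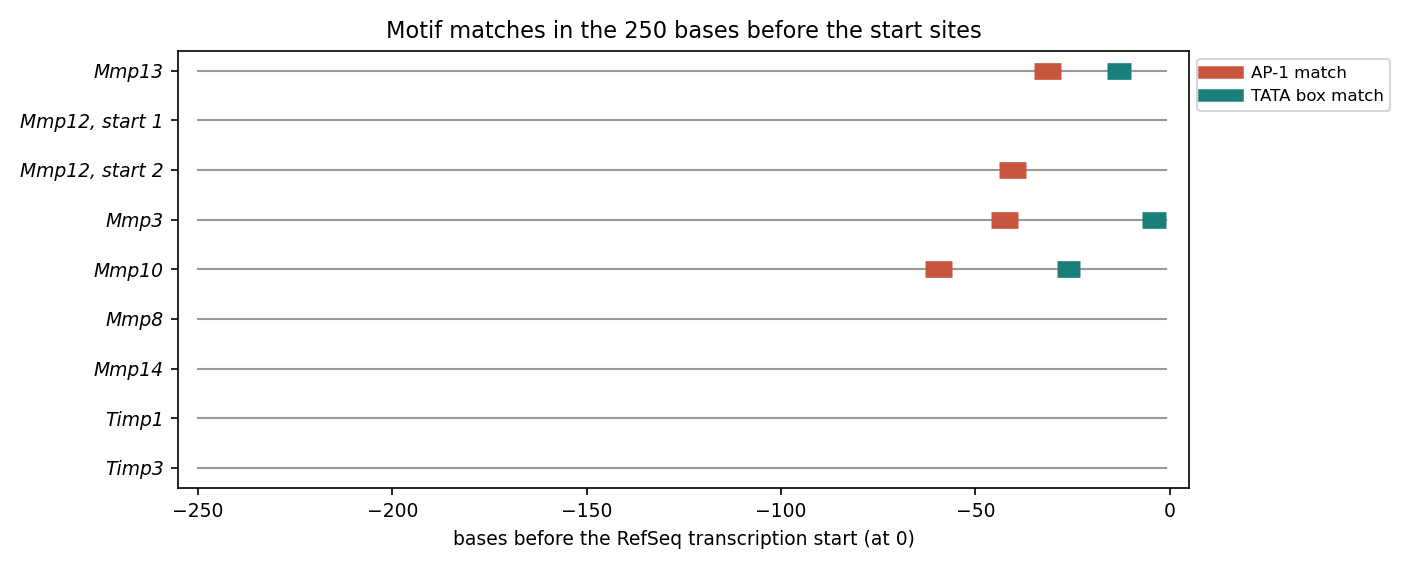
Each line is the 250 bases before a RefSeq start site, with position in bases on the horizontal axis and matches drawn as blocks. AP-1 matches (red) began 63 bases before the start in Mmp10, 46 in Mmp3, 44 in Mmp12 (second start) and 35 in Mmp13, and none was found in the windows of the first Mmp12 start, Mmp8, Mmp14, Timp1 and Timp3.

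Libraries held 2997238 to 6303322 counts in NGO-treated, 2019739 to 4053655 in stripped control and 2794791 to 2937738 in unstripped skin. Levels are given as CPM, each count scaled to a common depth, on library sizes scaled by edgeR's TMM method, and each read of this 3′ assay stands for the end of a transcript. Keratinocyte markers were found in every group, with Ivl at 0 in stripped control skin and Sprr2d and Lce3d at 0 in unstripped skin. The make-up of the libraries differed. Summed markers of skeletal muscle (20 genes, none at 0 in either stripped group and Tnnt1 at 0 in unstripped skin) ran from 23700 to 56200 CPM in NGO-treated, 52500 to 147000 CPM in stripped control and 210 to 1650 CPM in unstripped skin. Summed basal keratinocyte markers (12 genes, none at 0) ran from 12600 to 19200, 1980 to 3180 and 23500 to 32300 CPM in the same groups. In whole skin, a change in the number of cells of a type and a change in RNA per cell cannot be told apart, which applies to every result below.

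**Figure D2:**
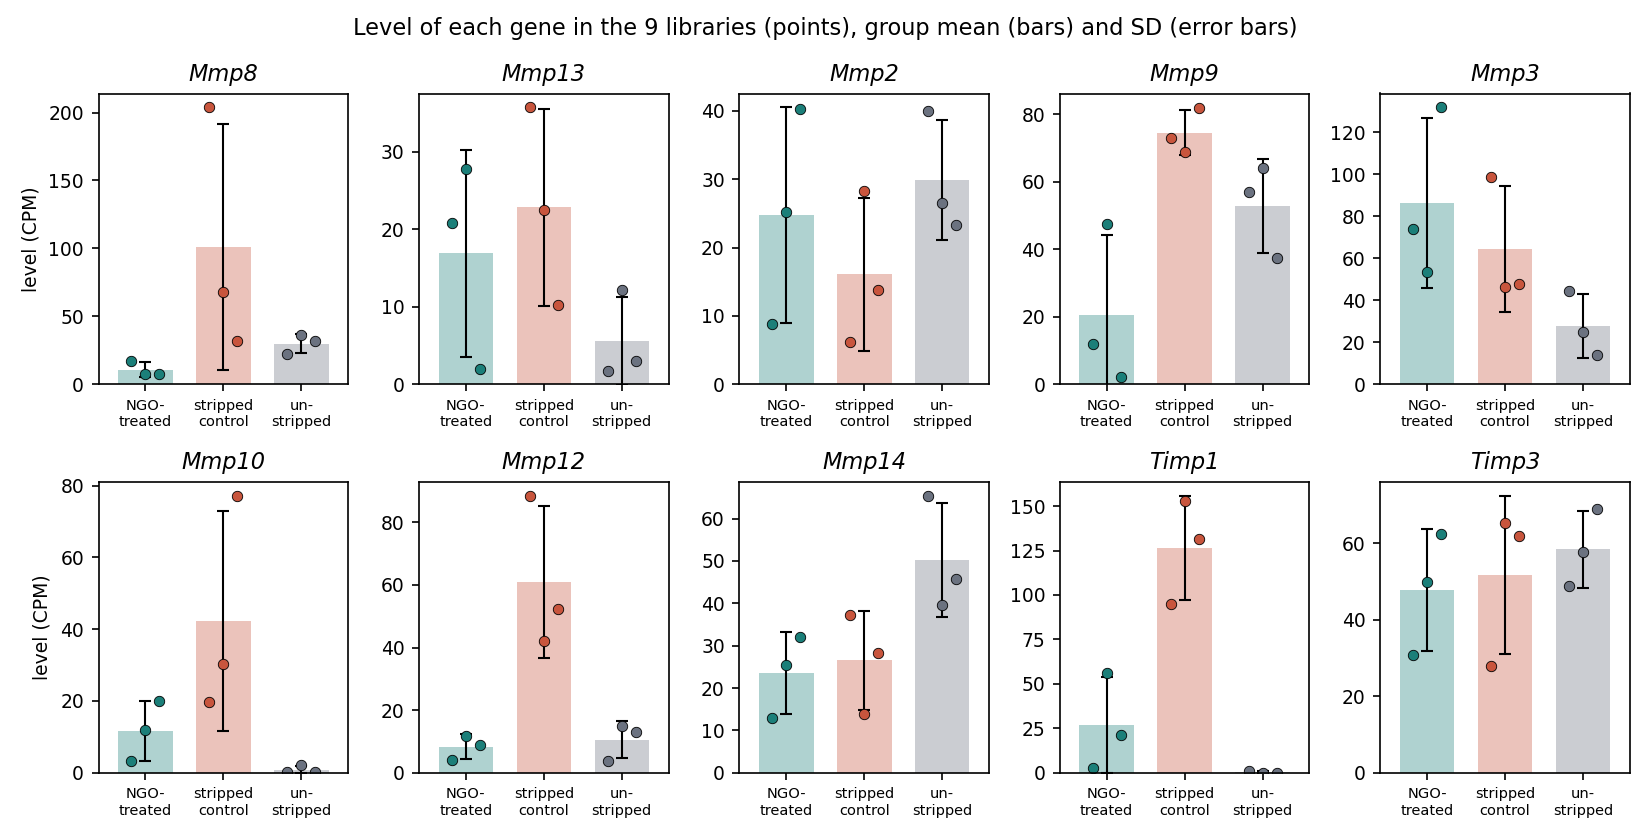
Points show the level of each gene in CPM in each library, bars the group mean and error bars the SD (n = 3, drawn no lower than 0). Timp1 and Mmp10 were near 0 in unstripped skin and higher in all stripped control libraries, and Mmp8 and Mmp12 were lower in all NGO-treated than in all stripped control libraries.

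The first comparison set stripped control skin against unstripped skin, and is called after stripping below. Since cream on the unstripped skin is unknown, stripping and cream cannot be told apart in it. Timp1, Mmp10 and Mmp12 rose, and no member fell. The edgeR quasi-likelihood test, fitted to all genes with Benjamini-Hochberg adjustment, thus called 3 of 10 members at an adjusted p under 0.05, all higher, where it called 13.6% of all genes (5.97% higher and 7.64% lower). That excess of lower calls over all genes (820 higher and 1050 lower) turned with RLE scaling (948 higher and 931 lower) and with limma-voom (1405 higher and 1184 lower). The median log2 fold change was 1.48 over the 10 members and -0.20 over all genes tested.

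Timp1, the soluble inhibitor of most secreted MMPs, was nearly silent before injury. It had 94.7, 153 and 132 CPM in stripped control skin (183, 470 and 410 counts), against 1.03, 0 and 0 CPM in unstripped skin (3, 0 and 0 counts). The groups were far apart, with 1 unstripped library alone holding any count. The summed counts gave a ratio of 423 (exact 95% interval 144 to 2050, counting error only), and the edgeR adjusted p was 0.000517. The call was kept in all 17 alternative analyses.

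The stromelysins cut many matrix proteins other than fibrillar collagen and activate other proMMPs. Mmp10 (stromelysin-2), known from keratinocytes migrating at the wound edge, had 19.7, 30.2 and 77.1 CPM in stripped control skin, against 0.344, 2.06 and 0.295 CPM in unstripped skin. Every stripped library was above every unstripped one, and the stripped libraries themselves spread 3.92-fold. The log2 fold change was 5.49 ± 1.19 (SE, 95% interval 2.91 to 8.06, edgeR adjusted p = 0.00761), a call kept in all 17 alternatives. The summed counts of 371 and 9 gave a ratio of 49.2 (95% interval 25.6 to 108, counting error only). Mmp3 (stromelysin-1), often made by dermal fibroblasts, had 98.8, 46.1 and 47.9 CPM in stripped control skin, against 44.4, 25.1 and 13.9 CPM in unstripped skin. The groups nearly touched without overlapping, and the difference did not pass (log2 1.21 ± 0.55, edgeR adjusted p = 0.17). Summed fibroblast markers (18 genes, none at 0) ran from 2060 to 2610 CPM in stripped control and 887 to 1120 CPM in unstripped skin. Of these 18, edgeR called 6 higher and 2 lower, namely Postn (3.02 against 100 CPM) and Thy1 (14.7 against 52.4 CPM). The part of fibroblasts in the Mmp3 values was not tested. Mmp3 and Mmp10 are close in sequence, and reads that match both could have been split between them, since the rule for such reads is unknown.

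Mmp12, the macrophage elastase, had 88.4, 42.2 and 52.4 CPM in stripped control skin, against 3.78, 15.0 and 13.0 CPM in unstripped skin. No stripped library reached down to the unstripped range. The log2 fold change was 2.52 ± 0.75 (edgeR adjusted p = 0.041). The call was close to the threshold. It was lost when any of the 3 unstripped libraries was left out, and on leaving out the first or the third stripped control library or the third NGO-treated one (adjusted p up to 0.142). The log2 value was 2.10 to 2.84 in the 9 fits without 1 library. Summed macrophage markers (18 genes, 0 and 2 of them at 0) ran from 795 to 1600 CPM in stripped control and 276 to 368 CPM in unstripped skin. Of 16 tested, 4 rose and 1 fell, and their part in the result was not tested.

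The collagenases open the triple helix of fibrillar collagen. Mmp8, the collagenase stored in neutrophil granules, had 204, 67.6 and 32.1 CPM in stripped control skin, against 22.0, 36.3 and 31.5 CPM in unstripped skin. Replicate 1 was far above the other 2 and replicate 3 lay inside the unstripped range, so the groups overlapped. The difference did not pass (log2 1.75 ± 0.66, edgeR adjusted p = 0.0976), although it did without a low-count filter (adjusted p = 0.0448), with DESeq2 (0.0315) and without stripped control replicate 3 (0.0324). Without stripped control replicate 1 the log2 value was 0.79 (adjusted p = 0.457), the highest p of all alternatives, and with limma-voom it was 0.93 (adjusted p = 0.161). Mmp13, the main interstitial collagenase of rodents, had 35.7, 22.4 and 10.3 CPM in stripped control skin, against 1.72, 12.1 and 2.95 CPM in unstripped skin. The groups overlapped at 1 library each (log2 2.02 ± 1.15, edgeR adjusted p = 0.286).

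The gelatinases digest denatured collagen and basement membrane collagen. Mmp9, of neutrophils, macrophages and keratinocytes, had 72.9, 68.9 and 81.9 CPM in stripped control skin, against 57.1, 64.3 and 37.4 CPM in unstripped skin. Stripped libraries were higher without overlap, but by a small margin (log2 0.49 ± 0.75, 95% interval -1.13 to 2.12, edgeR adjusted p = 0.746). Mmp2, a fibroblast gelatinase, had 6.21, 28.3 and 13.8 CPM in stripped control skin, against 39.9, 26.5 and 23.3 CPM in unstripped skin (log2 -0.89 ± 0.79, edgeR adjusted p = 0.537). Mmp14, the membrane protease that activates proMMP2, had 37.2, 14.0 and 28.3 CPM in stripped control skin, against 65.4, 39.5 and 45.7 CPM in unstripped skin. All 3 stripped libraries were below all 3 unstripped ones, and the difference did not pass (log2 -0.92 ± 0.60, edgeR adjusted p = 0.358). Timp3, the inhibitor that stays bound to matrix and also blocks the sheddase ADAM17, had 27.9, 65.3 and 62.0 CPM in stripped control skin, against 48.8, 57.8 and 69.0 CPM in unstripped skin. These ranges overlapped (log2 -0.17 ± 0.48, 95% interval -1.20 to 0.85, edgeR adjusted p = 0.87).

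In all, 5 members were above and 1 was below without overlap after stripping. Over all genes, 38.5% did not overlap, 13.8% above and 24.7% below. A permutation test of a single gene cannot go below an exact two-sided p of 0.1 with 3 libraries against 3.

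Markers of several other cell types moved in the same comparison. Summed neutrophil markers ran from 3980 to 11100 CPM in stripped control and 148 to 216 CPM in unstripped skin, and 10 of 15 tested rose with a median log2 fold change of 6.92 over the 15. Of 19 listed neutrophil genes in the files, Elane, Mpo and Camp were at 0 in the stripped control group, and 7 including these 3 were at 0 in unstripped skin. Lcn2 and the S100a8 and S100a9 genes of this list are also made by keratinocytes. S100a8 and S100a9 averaged 2510 and 3090 CPM in stripped control skin, and so made up most of the neutrophil sum there. The 2 members best known from neutrophils, Mmp8 and Mmp9, had the log2 values of 1.75 and 0.49 given above. Both were already present in unstripped skin (means of 29.9 and 52.9 CPM), where 7 of the 19 neutrophil genes had 0 counts. Their log2 values and the marker median are therefore not directly comparable. Over the same libraries 19 of 19 tested muscle markers rose (median log2 6.78). So did 7 of 11 endothelial, 4 of 8 adipocyte and 5 of 6 red blood cell markers. The ribosomal RNA entry Rn45s took 22.12% to 25.07% of counts in stripped control and 13.17% to 16.05% in unstripped libraries, and 12433 to 13309 genes were detected in stripped control against 14546 to 16183 in unstripped libraries. The part of these cell types and library differences in the values of the members was not tested.

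**Figure D3:**
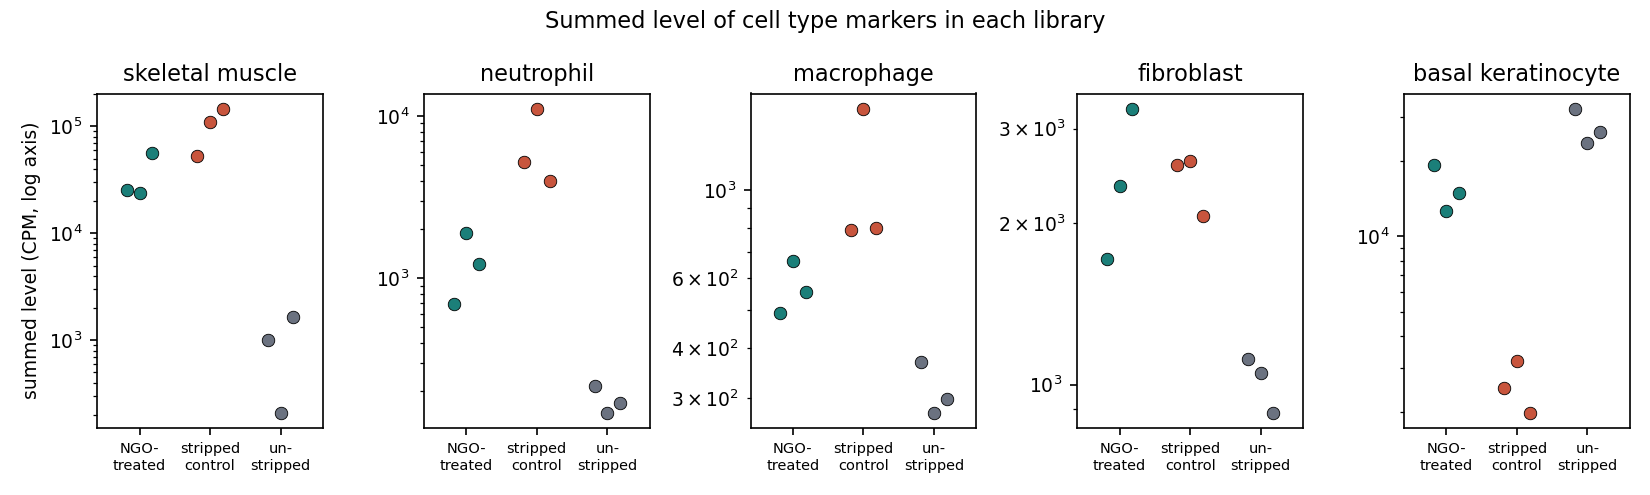
Points show, on log axes in CPM, the summed level of fixed marker lists in each of the 9 libraries. On average, S100a8 and S100a9 made up most of the neutrophil sums in both stripped groups. Neutrophil, macrophage and muscle sums were lower in every NGO-treated than in all stripped control libraries, except that NGO replicate 3 (56186 CPM of muscle markers) passed stripped control replicate 1 (52490 CPM), and basal keratinocyte sums were higher.

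The second comparison set graphene oxide cream against control cream on stripped skin, the question of the series title. Mmp8 and Mmp12 fell, and no member rose. These were 2 of 10 members called by edgeR, where it called 5.05% of all genes, 1.18% lower and 3.87% higher (532 higher and 162 lower, 428 and 215 with RLE scaling, and 195 and 219 with limma-voom, where the majority turned). The median log2 fold change was -1.14 over the members and 0.07 over all genes. Since the stripped control libraries serve in both this and the first comparison, a high value in them raises the first difference and lowers this one.

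Mmp8 had 17.2, 7.63 and 7.32 CPM in NGO-treated skin, against 204, 67.6 and 32.1 CPM in stripped control skin. All NGO-treated libraries were below all stripped control libraries. Its log2 fold change was -3.24 ± 0.70 (edgeR adjusted p = 0.0211), and the call was lost on leaving out the second or the third NGO-treated library or the first stripped control library (adjusted p up to 0.0811), with limma-voom (0.0805) and with these 2 groups fitted alone (0.0754). Leaving out that stripped control library, the highest of all, gave a log2 value of -2.27. Mmp12 had 3.93, 11.8 and 8.98 CPM in NGO-treated skin, against 88.4, 42.2 and 52.4 CPM in stripped control skin, again with no overlap. Its log2 fold change was -2.88 ± 0.76 (edgeR adjusted p = 0.0477). This call held in the fit without unstripped replicate 1 but not in the 8 that left out any other library (adjusted p up to 0.145), nor with limma-voom (0.0861) or these 2 groups alone (0.0891). The log2 value was between -3.21 and -2.54 in the 9 fits without 1 library.

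Several other members were lower on average without passing. Timp1 had 2.72, 56.0 and 21.5 CPM in NGO-treated skin, against 94.7, 153 and 132 CPM in stripped control skin. The groups did not overlap, but the NGO-treated libraries spread 20.6-fold (log2 -2.24 ± 0.86, edgeR adjusted p = 0.152, with 0.0309 under limma-voom and 0.0309 to 0.285 over all alternatives). Mmp9 had 12.1, 47.4 and 2.16 CPM in NGO-treated skin, against 72.9, 68.9 and 81.9 CPM in stripped control skin. It was below in 3 of 3 libraries with a 21.9-fold spread among them, while the stripped control libraries lay within 1.19-fold (log2 -1.86 ± 0.78, edgeR adjusted p = 0.186). Without NGO replicate 2 the log2 value was -3.41 (adjusted p = 0.0421, the lowest of the alternatives, which reached 0.366). Mmp10 had 3.32, 11.8 and 19.96 CPM in NGO-treated skin, against 19.7, 30.2 and 77.1 CPM in stripped control skin, and the highest NGO-treated library reached the lowest stripped control one (log2 -1.85 ± 0.99, edgeR adjusted p = 0.305).

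The remaining members overlapped between the creams. Mmp3 had 73.7, 53.7 and 132 CPM in NGO-treated skin, against 98.8, 46.1 and 47.9 CPM in stripped control skin (log2 0.43 ± 0.54, 95% interval -0.73 to 1.59, edgeR adjusted p = 0.711). Mmp13 had 20.8, 27.8 and 1.996 CPM in NGO-treated skin, against 35.7, 22.4 and 10.3 CPM in stripped control skin, with NGO replicate 3 the lowest of the 6 (log2 -0.43 ± 1.10, edgeR adjusted p = 0.872). Mmp2 had 8.76, 25.2 and 40.3 CPM in NGO-treated skin, against 6.21, 28.3 and 13.8 CPM in stripped control skin (log2 0.62 ± 0.79, edgeR adjusted p = 0.718). For these 3 genes the group means differed by less than the larger SD. Mmp14 averaged 23.5 ± 9.71 CPM in NGO-treated and 26.5 ± 11.7 CPM in stripped control skin, and Timp3 averaged 47.8 ± 16.0 and 51.8 ± 20.7 CPM in the same groups (SD, n = 3 each). Their log2 values were -0.17 (95% interval -1.44 to 1.11) and -0.12 (95% interval -1.14 to 0.91).

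Without overlap, 4 members were below and 0 above in NGO-treated skin, where 25.2% of all genes did not overlap, 8.92% below and 16.3% above. Summed neutrophil markers ran from 689 to 1900 CPM in NGO-treated and 3980 to 11100 CPM in stripped control skin (4 of 15 fell), and macrophage markers from 490 to 663 and 795 to 1600 CPM in the same groups (1 of 16 fell and 1 rose). S100a8 and S100a9 averaged 387 and 547 CPM in NGO-treated skin, again most of the neutrophil sum. Rn45s took 9.35% to 20.99% of counts in NGO-treated and 22.12% to 25.07% in stripped control libraries. Genes detected numbered 13863 to 14404 and 12433 to 13309 in the same groups. Whether the lower Mmp8 and Mmp12 follow these cell types or library differences was not tested.

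**Figure D4:**
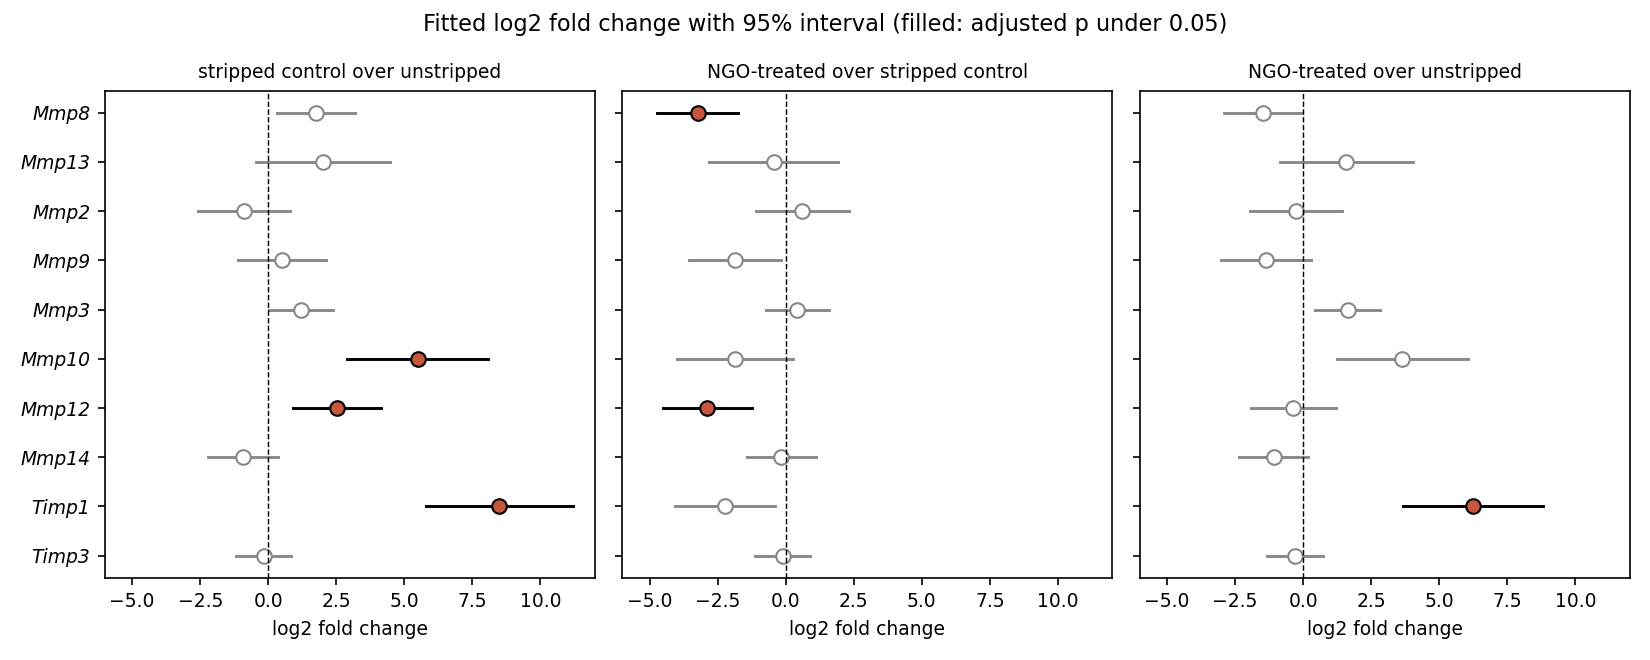
Points are fitted log2 fold changes with 95% intervals (bars) for the 10 members in 3 comparisons, filled where the edgeR adjusted p was under 0.05. Timp1, Mmp10 and Mmp12 were called higher after stripping, Mmp8 and Mmp12 lower with graphene oxide, and Timp1 higher in NGO-treated than unstripped skin. The Timp1 values against unstripped skin rest on 3 counts there.

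The third comparison set NGO-treated against unstripped skin, which it shares with the first. Timp1 stayed higher and was the 1 member of 10 called, where edgeR called 2.51% of all genes (2.06% higher and 0.451% lower). With 9, 242 and 129 counts in NGO-treated skin against 3, 0 and 0 in unstripped skin, the ratio of summed counts was 90.0 (95% interval 30.6 to 438, counting error only). The fitted log2 fold change was 6.25 (95% interval 3.67 to 8.83, edgeR adjusted p = 0.0108). NGO replicate 1, with 9 counts, was the closest to the unstripped libraries. The call held in all 9 fits without 1 library (adjusted p up to 0.0448), and Timp1 fell under the low-count filter when these 2 groups were fitted alone.

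Mmp10 and Mmp3 were above the unstripped libraries in 3 of 3 NGO-treated libraries and did not pass. Mmp10 averaged 11.7 ± 8.32 CPM in NGO-treated and 0.901 CPM in unstripped skin, where its libraries had 0.344, 2.06 and 0.295 CPM (log2 3.64 ± 1.11, edgeR adjusted p = 0.144, with 0.00982 under DESeq2 and up to 0.516 over the alternatives). Mmp3 averaged 86.4 ± 40.6 CPM in NGO-treated and 27.8 ± 15.4 CPM in unstripped skin (SD, n = 3 each; log2 1.64 ± 0.55, edgeR adjusted p = 0.198, with 0.00486 under limma-voom and up to 0.672 over the alternatives). Mmp8 and Mmp14 were below all unstripped libraries in 3 of 3 NGO-treated libraries, also without passing. Mmp8 averaged 10.7 ± 5.62 CPM in NGO-treated and 29.9 ± 7.26 CPM in unstripped skin (log2 -1.49 ± 0.66, edgeR adjusted p = 0.388). Mmp14 averaged 23.5 ± 9.71 CPM in NGO-treated and 50.2 ± 13.5 CPM in unstripped skin (log2 -1.09 ± 0.60, edgeR adjusted p = 0.57). With Timp1, 3 members were thus above and 2 below without overlap, where 26.2% of all genes did not overlap, 11.9% above and 14.4% below. Mmp12 averaged 8.24 ± 3.99 CPM in NGO-treated and 10.6 ± 5.99 CPM in unstripped skin, a log2 difference of -0.36 (95% interval -1.92 to 1.20). For Mmp2, Mmp9, Mmp13 and Timp3 the groups overlapped and the edgeR adjusted p was 0.587 to 0.987.

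Other genes of the protease system were read from fixed lists. Of 15 further Mmp genes, 6 were tested and Mmp19 alone rose after stripping, with 35.9 ± 24.9 CPM in stripped control and 5.29 CPM (5.85, 5.90 and 4.13 CPM in its libraries) in unstripped skin (log2 2.76 ± 0.82, edgeR adjusted p = 0.0394). None of the 6 passed with graphene oxide. Mmp7, Mmp21, Mmp27 and Mmp28 had 0 counts in all 9 libraries, where 3 counts over a group would be 0.220 CPM in NGO-treated, 0.369 CPM in stripped control and 0.310 CPM in unstripped skin. Among 4 tested inhibitors none passed in any comparison. Timp2, named after its values were seen, which also helps MMP14 activate proMMP2, averaged 132 ± 63.2 CPM in NGO-treated, 102 ± 22.2 CPM in stripped control and 75.9 ± 32.7 CPM in unstripped skin.

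Of 12 tested ADAM and ADAMTS genes, Adamts1, a protease of proteoglycans, rose after stripping (log2 2.67 ± 0.42, edgeR adjusted p = 0.00073) and the sheddase gene Adam17 fell (log2 -2.27 ± 0.50, edgeR adjusted p = 0.00874), and none passed with graphene oxide.

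Among 8 genes of MMP partners, Lcn2, whose human product forms a complex with MMP9, rose after stripping (log2 7.17 ± 0.87, edgeR adjusted p = 0.000138), and the shed proteoglycan genes Sdc1 (log2 -1.52 ± 0.29, edgeR adjusted p = 0.00271) and Sdc4 (log2 -0.99 ± 0.30, edgeR adjusted p = 0.0452) fell. Lcn2 was still higher in NGO-treated than in unstripped skin (log2 5.64 ± 0.83, edgeR adjusted p = 0.00242). Sdc1 was the 1 of these 8 to pass with graphene oxide. It averaged 356 ± 70.6 CPM in NGO-treated and 117 ± 14.7 CPM in stripped control skin (log2 1.61 ± 0.29, edgeR adjusted p = 0.00765). Sdc1 is an epithelial gene, and of 12 basal keratinocyte markers 8 fell after stripping and 7 rose with graphene oxide. Their part in the Sdc1 values was not tested. The granule protease genes Elane, Prtn3, Ctsg and Mpo had 0 counts in all 9 libraries and were not tested. Only Ctsl, Ctsk and Ctss of their list were tested, and none of these 3 passed in any comparison.

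The members differed in pattern over the 9 libraries. On log2 CPM, Timp1 and Mmp10 were most alike (Pearson r = 0.924), followed by Mmp2 and Timp3 (0.764) and Mmp8 and Mmp12 (0.728), while Mmp2 and Mmp13 ran opposite (-0.661). Among 10269 other genes averaging a log2 CPM of at least 3, those closest to Timp1 were Ccl9 (0.985), a chemokine gene, and Itga7 and Sgca (0.982 each), which encode membrane proteins of muscle fibres. Closest to Mmp10 were Prkg1 (0.983), Slfn1 (0.981) and Myog (0.974), the last a muscle transcription factor. Closest to Mmp8 were Lrrc49 (0.975), Prkg2 (0.949) and Luzp2 (0.940), and closest to Mmp12 were Kif1b (0.958), Stk39 (0.955) and Otogl (0.952). For the other 6 members the 3 closest genes had r between 0.915 and 0.968. All of these describe 9 points that share groups and scaling.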

How the data were processed

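Lexogen QuantSeq 3′ libraries were made from 500 ng of total RNA, per the labels' protocols. The authors deposited raw counts per gene symbol, 1 table per library. Bowtie2, bedtools and mm10 are named in the submitters' processing notes, and their versions, the strand setting and the rule for reads with several matches are not given in the sources used here. Each table held 23282 entries (23238 unique symbols), and no replicate pair agreed within sampling noise (chi-square per degree of freedom 7.82 or more).

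From these counts, edgeR 4.0.16 (R 4.3.3) was run with filterByExpr, TMM scaling and the robust quasi-likelihood test on all 9 libraries, with group as the factor and Benjamini-Hochberg adjustment over 13740 genes. The SE is the log2 fold change divided by the root of F. The test was first tried on simulated data, in which only well-expressed genes were changed, by less than the fitted changes of Timp1 and Mmp10 after stripping. That run does not cover genes with as few counts as Timp1 and Mmp10 had in unstripped skin. Coordinates came from GENCODE M21 (10 of 10 members matched) and sequences from RefSeq GRCm38.p6. Alternatives were RLE scaling, library sizes without muscle, adipocyte, blood and Rn45s counts, no filter, 20 counts in 3 libraries, DESeq2 1.42.0, limma-voom (limma 3.58.1), the replicate number as a block, 2 groups alone, and leaving out each library. Named genes were all members, called genes of the fixed lists (at most 3 per list and comparison, by p) and the 3 genes with the most similar pattern to each member. Members and lists were chosen with earlier results of these data known. Results of 1 further gene list are not reported here.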

Additional observations from a re-analysis of the deposited data

How the results depend on the processing

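Of 509 member values recomputed under 17 alternatives, 469 kept direction and side of the threshold, 23 lost their call, 7 gained one and 10 changed sign, none of these 10 in a called comparison. After stripping, 2 to 4 members were called throughout. With graphene oxide the count of 2 became 1 with limma-voom, which lost Mmp8 and Mmp12 and called Timp1 instead, 1 with the replicate block, which lost Mmp12, 0 with the 2 groups alone, and 0 to 2 without 1 library. Without NGO replicate 2 the 1 member called was Mmp9. For NGO-treated against unstripped skin the count of 1 became 2 with DESeq2 and with limma-voom, and 0 with the 2 groups alone, where the filter dropped Timp1. Over all genes, 1870 calls after stripping became 3171 with DESeq2 and 1159 to 2124 without 1 library. With graphene oxide, 694 became 1954 with DESeq2, 414 with limma-voom, 118 with the 2 groups alone and 206 to 929 without 1 library. Against unstripped skin, 345 became 810 with DESeq2, 1353 with limma-voom, 602 with the 2 groups alone and 214 to 495 without 1 library. The causes were not tested.

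The sign changes with graphene oxide were in Mmp14 (log2 0.011 with limma-voom, -0.48 to 0.13 without 1 library), Timp3 (-0.44 to 0.12), Mmp13 (-0.99 to 0.083) and Mmp3 (-0.029 to 0.86). Others were Timp3 after stripping (-0.35 to 0.18) and Mmp2 in NGO-treated against unstripped skin (-0.82 to 0.12). With RLE scaling the median log2 fold change of all genes after stripping was -0.07 in place of -0.20, with the same numbers of members called.

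Replicate numbers were shared between groups. Same-numbered libraries deviated together little (r from -0.06 to 0.09, and 4 of 9 correlated best with their own number). With 3 libraries per group these values cannot exclude a shared mouse or batch, so whether the numbers mark pairs is unknown. With the replicate block, all-gene calls were 1650, 559 and 313 in the 3 comparisons, and members called were 2, 1 and 1. The block ended the Mmp12 call after stripping (log2 2.75, edgeR adjusted p = 0.0606) and with graphene oxide (log2 -3.09, edgeR adjusted p = 0.0708), and gave Mmp8 after stripping a log2 value of 1.32 (adjusted p = 0.216).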

Other observations

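The ratio of 2 counts within a library does not depend on scaling. These pairs were chosen after their values were seen, and no test was made. The count of Timp1 over that of Timp3 was 0.0882, 1.12 and 0.343 in NGO-treated skin, 3.39, 2.34 and 2.12 in stripped control skin, and 0.0211, 0 and 0 in unstripped skin. It was thus lower in each NGO-treated than in any stripped control library, and higher than in any unstripped one. The count of Mmp3 over that of Mmp8 was 4.28, 7.03 and 18 in NGO-treated skin, 0.485, 0.683 and 1.49 in stripped control skin, and 2.02, 0.691 and 0.439 in unstripped skin. All NGO-treated libraries were above all others.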
